A study of Mus musculus with 3 samples.

Results

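Genes of integrins, laminins and the basement membrane were read in R1 mouse embryonic stem (ES) cells. They were taken by a rule on gene names, wherever the platform annotation gave a probe set a single gene symbol. The rule names the integrin alpha and beta chains, the integrin beta binding proteins, laminin chains, nidogens, perlecan (Hspg2), agrin, dystroglycan and fibronectin. It also names vitronectin, talins, kindlins, Ilk, Ptk2, paxillin and vinculin. The rule was set with earlier results of these data known. Of 19057 genes measured, 52 met this rule, read by 53 probe sets. Dag1 and Ptk2, whose names the rule would take, were not analysed here.

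The samples were 3 biological repeats of R1, an ES cell line of strain 129, with no treatment, genotype change or second group named. Each repeat was hybridised as total RNA to an Affymetrix Mouse Gene 1.0 ST array, whose probes lie along the exons of a transcript. The labels do not say whether the cells were kept on feeder cells or on a coated dish, nor whether the repeats were separate cultures, so the p-values below measure only the spread between these 3 samples, and their number limits every precision. The RNA is from bulk cells, in which fewer cells of a type and less RNA per cell cannot be told apart.

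The basement membrane is a thin sheet of extracellular matrix on which epithelia and the early embryo's cell layers rest. Laminins, each built of an alpha, a beta and a gamma chain, polymerise on the cell surface, and nidogens and perlecan tie that layer to a network of type IV collagen. Cells hold on to it through integrins, receptors of an alpha and a beta chain, which talins and kindlins switch on from inside the cell and which vinculin, paxillin and Ilk link to actin. Blastocyst-derived cells make laminins, and ES cells attach to laminin and fibronectin through integrins that contain Itgb1.

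Values are log2 of the deposited intensity, given for repeats 1, 2 and 3 in that order, and mean ± SD is over the 3 arrays (n = 3). A gene was counted above background when it exceeded, on each array, the 95th percentile of 1188 receptor genes of the nose (olfactory and vomeronasal), at 4.72, 4.60 and 4.61. A stricter cutoff was the 99th percentile of the same genes, at 5.52, 5.40 and 5.53. A second background came from 158 genes of other tissue-restricted families (keratin-associated proteins, defensins, taste receptors, late cornified envelope proteins and the prolactin family), whose 95th percentile lay at 6.20, 6.31 and 6.20. Levels of different genes depend on their probes and were not ranked against each other. Array medians were 47.8, 46.7 and 46.8 on the intensity scale, and all 11 measured markers of pluripotent cells, among them Pou5f1, Sox2 and Nanog, were above background on every array.

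Of the 52 genes, 42 (80.8%) were above background on all 3 arrays, 1 on 2 arrays and 9 on none. Among 17869 genes outside the receptor families the share above background was 71.5%. At the 99th percentile the members numbered 28 (53.8%) against 54.9% of those genes, so at that cutoff their share was near that of genes at large. Above the other families lay 24 (46.2%), against 39.7% of genes outside those families. The members fell into 24 genes above every cutoff, 18 between the lowest and the highest cutoff, and 10 that did not pass the lowest on all arrays. For the 18 intermediate genes these data do not settle whether a transcript was present.

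**Figure D1:**
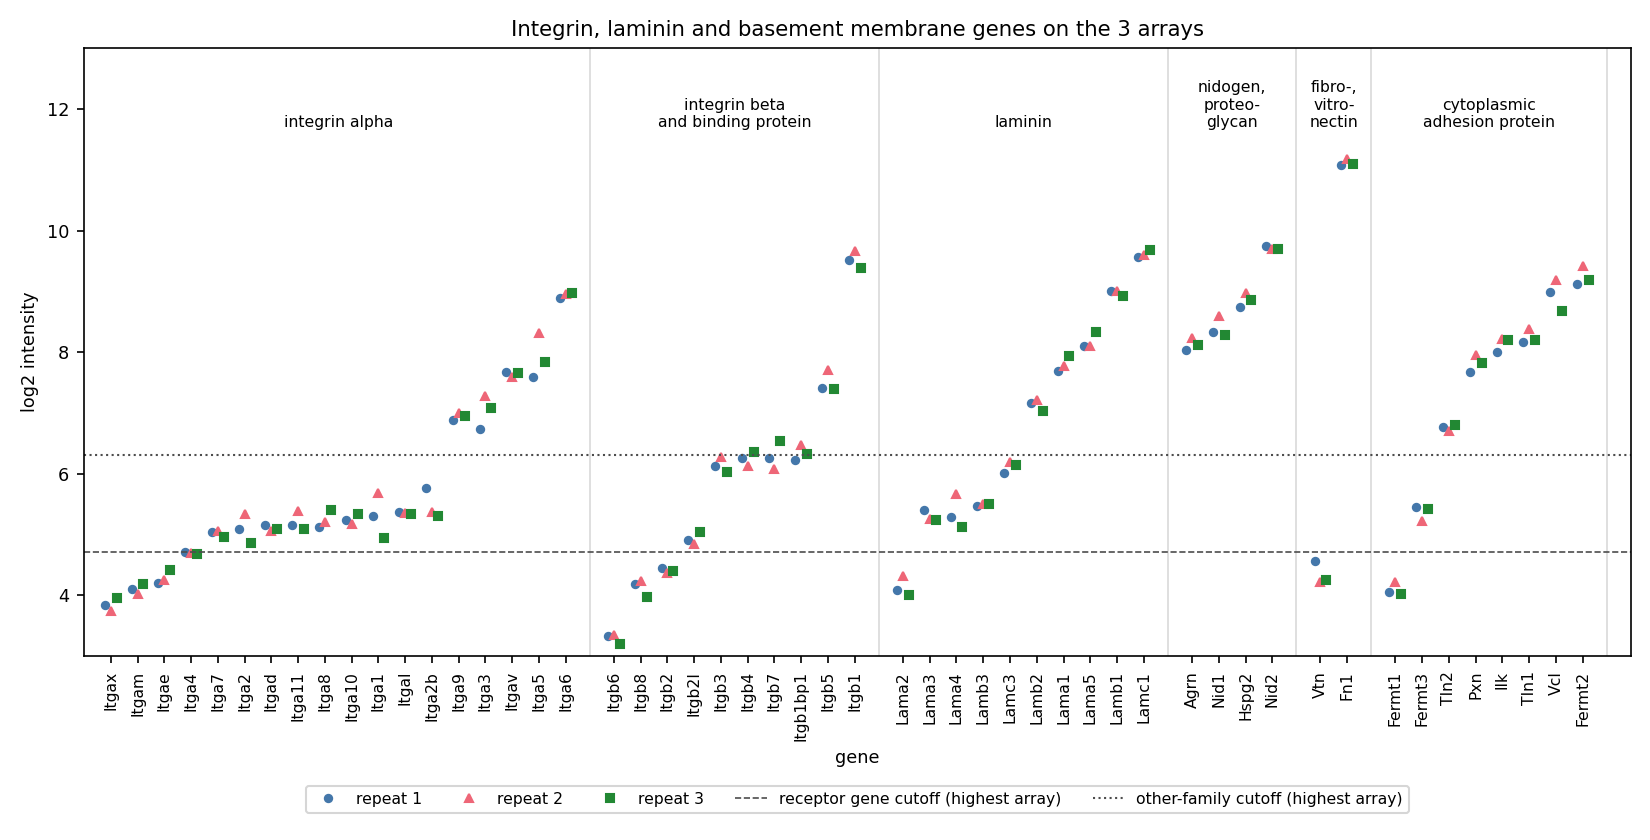
Log2 intensity of each of the 52 genes on the 3 arrays, grouped by role, with each repeat as a symbol and no averaging. The dashed line is the receptor gene cutoff and the dotted line the cutoff from other families, each on the array where it was highest; 24 genes lie above the other-family cutoff of every array and 9 lie below the receptor gene cutoff on all 3.

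The integrin alpha chains split into a small group with clear signal and a larger one near background. Of 18 alpha genes 14 (77.8%) were above background, against 71.5% of genes outside the receptor families. Above the other families lay 5, namely Itga3, Itga5, Itga6, Itga9 and Itgav, a share of 27.8% against 39.7% of genes outside those families. Itga6, a chain of laminin receptors and a known surface marker of ES cells, read 8.89, 8.96 and 8.98, and the repeats were nearly even (8.94 ± 0.048). Itgav, a chain of receptors that recognise the RGD peptide of vitronectin and fibronectin, read 7.68, 7.59 and 7.66 (7.64 ± 0.049), again with little spread. Itga9, which pairs with Itgb1 and binds tenascin, read 6.89, 7.00 and 6.94 (6.94 ± 0.057).

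Itga5 and Itga3 were less even. Itga5, which with Itgb1 forms the main fibronectin receptor, read 7.58, 8.32 and 7.84 (7.91 ± 0.37), highest in repeat 2 and lowest in repeat 1. Itga3, a laminin-binding chain, read 6.74, 7.28 and 7.08 (7.03 ± 0.27), with the same order of repeats. Set against the mean of repeats 1 and 3, repeat 2 was higher by 0.60 log2 units for Itga5 and by 0.37 for Itga3.

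The other alpha chains read near background. The collagen-binding chain Itga1 read 5.30, 5.69 and 4.94 (5.31 ± 0.38) and spread over 0.75 log2 units, with repeat 2 high and repeat 3 low. Itga2, a second collagen receptor chain, read 5.08, 5.34 and 4.86 (5.09 ± 0.24), in the same order. Itga2b, the chain of the platelet fibrinogen receptor, was high in repeat 1 instead, at 5.77, 5.36 and 5.30 (5.48 ± 0.26). The means of the other intermediate alpha genes, Itga7, Itga8, Itga10, Itga11, Itgad and Itgal, ran from 5.02 for Itga7 to 5.35 for Itgal.

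Itga4, a chain of receptors for Vcam1 and fibronectin, read 4.71, 4.70 and 4.69 (4.70 ± 0.014) and exceeded the lowest cutoff on 2 arrays only, with 4.715 against a cutoff of 4.722 in repeat 1. Itgae, Itgam and Itgax were below background on every array. Itgae, a receptor chain for E-cadherin on mucosal T cells, read 4.20, 4.25 and 4.42 (4.29 ± 0.12). Itgam read 4.10, 4.02 and 4.18 (4.10 ± 0.082) and Itgax 3.84, 3.75 and 3.95 (3.85 ± 0.10), both chains of myeloid receptors that pair with Itgb2. In all of these the repeats differed by at most 0.22 log2 units.

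Among the beta chains and binding proteins, 7 of 10 (70.0%) were above background, near the 71.5% of genes outside the receptor families. Above the other families lay 3 (30.0%), against 39.7% of genes outside those families. Itgb1, the partner of most matrix-binding alpha chains, read 9.52, 9.67 and 9.39 (9.53 ± 0.14), highest in repeat 2. Itgb5, the partner of Itgav in a vitronectin receptor, read 7.41, 7.70 and 7.40 (7.51 ± 0.17), and only repeat 2 stood apart. Itgb1bp1, a cytoplasmic protein that binds the Itgb1 tail and restrains its activation, read 6.23, 6.48 and 6.32 (6.34 ± 0.12).

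Itgb3, Itgb4, Itgb7 and Itgb2l were intermediate, with means of 6.15, 6.25, 6.30 and 4.93. Itgb7, a lymphocyte chain that pairs with Itga4 or Itgae, read 6.27, 6.07 and 6.55 (6.30 ± 0.24); it was high in repeat 3 and low in repeat 2, against the order seen in Itga5. Itgb2, the beta chain of the leukocyte integrins, was below background at 4.46, 4.37 and 4.41 (4.41 ± 0.041). Itgb6, an epithelial chain, read 3.33, 3.35 and 3.20 (3.29 ± 0.079), and Itgb8, the other Itgav partner below background, read 4.19, 4.23 and 3.98 (4.13 ± 0.14).

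Every alpha chain above the strictest cutoff, Itga3, Itga5, Itga6, Itga9 and Itgav, is known to pair with Itgb1, which was also above it. The leukocyte pairs were incomplete, since Itgal and Itgad passed the lowest cutoff while their partner Itgb2 did not. Of 13 measured leukocyte markers 4 (30.8%) were above background (Laptm5, Cd68, Coro1a and Cd3e), against 71.5% of genes outside the receptor families. The other 9, among them the defining genes Ptprc, Csf1r, Adgre1 and Spi1, were below it on every array. The summed intensity of all 13 was 918, 897 and 1054 in repeats 1, 2 and 3, and Laptm5, at 8.89, 8.80 and 9.25, made the largest part of it. Of 6 platelet markers 4 (66.7%) were above background, Pf4 and Ppbp were not, and the sum was 235, 229 and 218. Among those 4, repeat 1 was the highest in 1 (Treml1), repeat 2 in 2 (Gp5 and Gp9) and repeat 3 in 1 (Vwf). The part of platelet cells in the Itga2b values was not tested.

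Of the 10 measured laminin chains 9 were above background and 5 above the other families: Lama1, Lama5, Lamb1, Lamb2 and Lamc1. These chains include at least an alpha, a beta and a gamma chain. Lama1, the alpha chain of the first laminin of the embryo, read 7.70, 7.78 and 7.94 (7.81 ± 0.13). Lama5, an alpha chain found widely in epithelial basement membranes, read 8.11, 8.10 and 8.32 (8.18 ± 0.13), and both alpha chains were highest in repeat 3.

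The beta and gamma chains had little spread. Lamb1, the beta chain shared by many laminins, read 9.01, 9.00 and 8.93 (8.98 ± 0.045). Lamc1, the gamma chain of most laminins, read 9.57, 9.60 and 9.67 (9.61 ± 0.052), so the repeats of each lay within 0.10 log2 units. Lamb2, a beta chain of nerve, muscle and kidney basement membranes, read 7.14 ± 0.094.

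Chains of laminins known from other tissues were near or below background. Lama4, an alpha chain of vessel walls, read 5.28, 5.67 and 5.12 (5.36 ± 0.28) and was high in repeat 2. Lama3 and Lamb3, chains of the skin's anchoring laminin, read 5.30 ± 0.084 and 5.49 ± 0.023, and Lamc3 read 6.12 ± 0.093. Lama2, the muscle laminin alpha chain, was below background at 4.08, 4.31 and 4.01 (4.14 ± 0.16). Of 10 measured markers of stratified epithelium and its hemidesmosomes 8 (80.0%) were above background and 3 (30.0%) above the other families. Over genes outside the families used, these shares were 71.5% and 39.7%. Dsg3 was below background on every array and Krt5 passed on 2. The summed intensity of the 10 was 1103, 1163 and 1189.

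All 4 linking proteins of the basement membrane exceeded every cutoff. Over genes outside the families used, 71.5% exceeded the lowest cutoff, 54.9% the 99th percentile and 39.7% the other families. Nid2, one of the nidogens that bridge laminin and collagen, read 9.74, 9.70 and 9.70 (9.71 ± 0.024), and Nid1 read 8.33, 8.60 and 8.29 (8.41 ± 0.17). Nid2 was thus even, while Nid1 was high in repeat 2 by 0.29 log2 units over the mean of the others. Perlecan, Hspg2, read 8.74, 8.98 and 8.86 (8.86 ± 0.12), and agrin, Agrn, a heparan sulphate proteoglycan best known from the nerve-muscle synapse, read 8.04, 8.23 and 8.11 (8.13 ± 0.097); both were highest in repeat 2 and lowest in repeat 1.

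Fibronectin and vitronectin, the soluble and deposited ligands of RGD-binding integrins, lay on opposite sides of background. Fn1 read 11.08, 11.18 and 11.09 (11.12 ± 0.057). Vtn, a plasma protein made mainly by liver, read 4.57, 4.21 and 4.25 (4.35 ± 0.19) and did not pass on any array.

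Inside the cell, 7 of 8 adhesion proteins (87.5%) were above background and 6 (75.0%) above the other families. Over genes outside the families used, these shares were 71.5% and 39.7%. Talin 1, Tln1, which binds integrin tails and activates them, read 8.17, 8.38 and 8.19 (8.25 ± 0.11). The kindlin Fermt2, its co-activator, read 9.13, 9.41 and 9.18 (9.24 ± 0.15). Repeat 2 was the highest in both, by 0.19 and 0.26 log2 units over the mean of the others.

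The linker proteins showed the same order in part. Vcl, vinculin, which strengthens the tie of talin to actin, read 8.99, 9.19 and 8.67 (8.95 ± 0.26), with repeat 3 low. Ilk, a pseudokinase that joins integrin tails to parvins, read 8.00, 8.22 and 8.20 (8.14 ± 0.12), with repeat 1 low. Pxn, the scaffold paxillin, read 7.68, 7.95 and 7.82 (7.82 ± 0.13). Tln2 was even at 6.76 ± 0.050, Fermt3, the kindlin of blood cells, was intermediate at 5.37 ± 0.13, and Fermt1, the kindlin of epithelia, was below background at 4.05, 4.22 and 4.02 (4.10 ± 0.11).

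The repeats were then compared with each other. No member varied beyond the trend of all genes: after Benjamini-Hochberg adjustment, limma's variance test called 0 of 43 members tested and 22 of 13592 genes (0.162%). The smallest adjusted p among members was 0.319, for Itga5, and the next 0.536, for Itga1. At an unadjusted p under 0.05 there were 4 members, Itga5 (0.00263), Itga1 (0.0105), Vcl (0.0113) and Itga3 (0.0295), a share of 9.30% against 5.75% of genes tested. On simulated data of 13592 genes the same test recovered 2% of changes of 0.5 log2 units on 1 array, 88% of changes of 1 and 100% of changes of 1.5. The absence of calls thus says little about changes near 0.5. The simulated spread was drawn around 1 value at every level, without the trend with level fitted on the arrays, so recovery on the arrays may differ.

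The median SD of the 42 members above background was 0.121 log2 units, against 0.101 over all 12815 genes above background. It was 0.070 when repeat 2 was left out, against 0.076 for all genes. Without repeats 1 and 3 it was 0.110 and 0.105, against 0.085 and 0.086 for all genes. Of the 42 members 5 (11.9%) spanned more than 0.5 log2 units, namely Itga1, Itga5, Itga3, Lama4 and Vcl, against 4.46% of genes above background. A span over 0.25 log2 units was seen in 15 members (35.7%), against 33.4% of genes, a share near the background. In fold terms the highest repeat of Itga1 was 1.68 times the lowest, and that of Itga5 1.66 times.

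**Figure D2:**
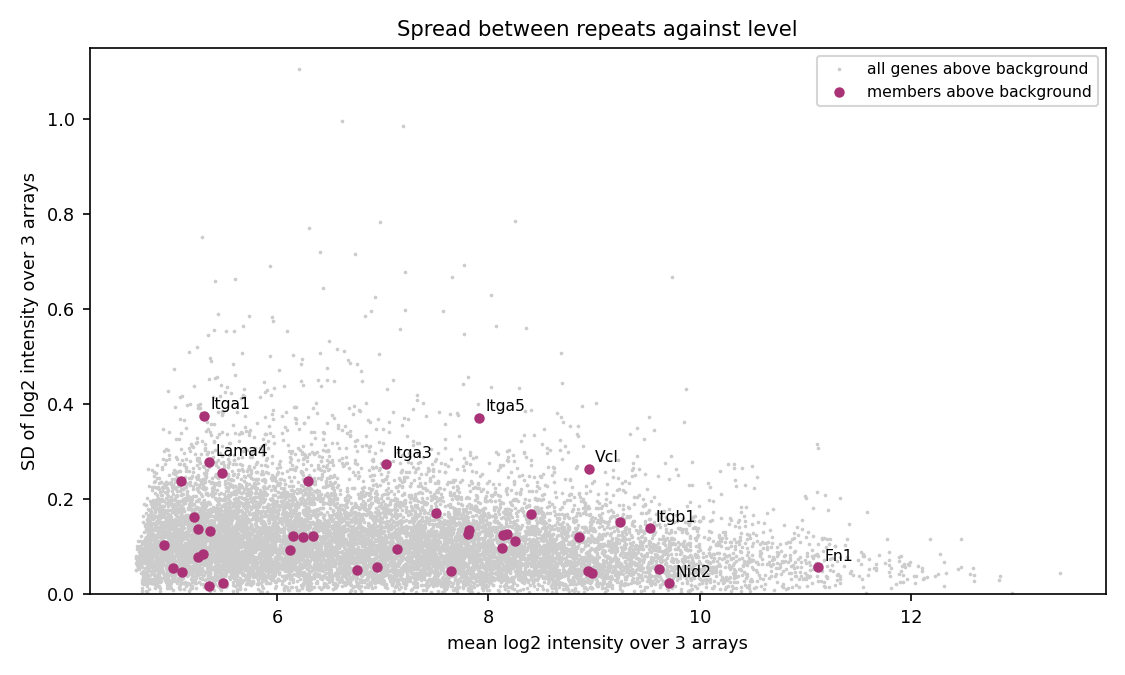
SD of log2 intensity over the 3 arrays against mean log2 intensity, for all 12815 genes above background (grey) and the 42 members among them (purple), 1 point a gene. Itga1 and Itga5 have the largest SD of the members, at 0.38 and 0.37, and all 42 lie within the cloud of other genes.

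Repeat 2 was the highest of the 3 in 23 of the 42 members (54.8%), against 36.9% of genes above background. Repeat 1 was highest in 8 and repeat 3 in 11, where the shares over all genes were 30.0% and 33.1%. The median over members of repeat 2 minus the mean of the other repeats was 0.092 log2 units, beside 0.0065 for all genes. For repeats 1 and 3 these medians were -0.051 and -0.025. Among the 24 members above every cutoff repeat 2 was highest in 16, and among the 18 intermediate ones in 7.

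The counts differed in size between roles. Repeat 2 was highest in 3 of 4 nidogen and proteoglycan genes, in 5 of 7 cytoplasmic proteins above background, in 4 of 7 beta chains and binding proteins and in 7 of 14 alpha chains. Over all genes above background repeat 2 was highest in 36.9%. Of 9 laminin chains above background it was highest in 3 (33.3%), Lama4, Lamb2 and Lamc3, a share near that of all genes. Repeat 3 was highest in 4 laminin chains and repeat 1 in 2. The roles named here hold only 4 to 14 such genes each. The median shift of repeat 2 was 0.013 log2 units for laminins and 0.19 for cytoplasmic proteins; the difference between the roles was not tested.

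**Figure D3:**
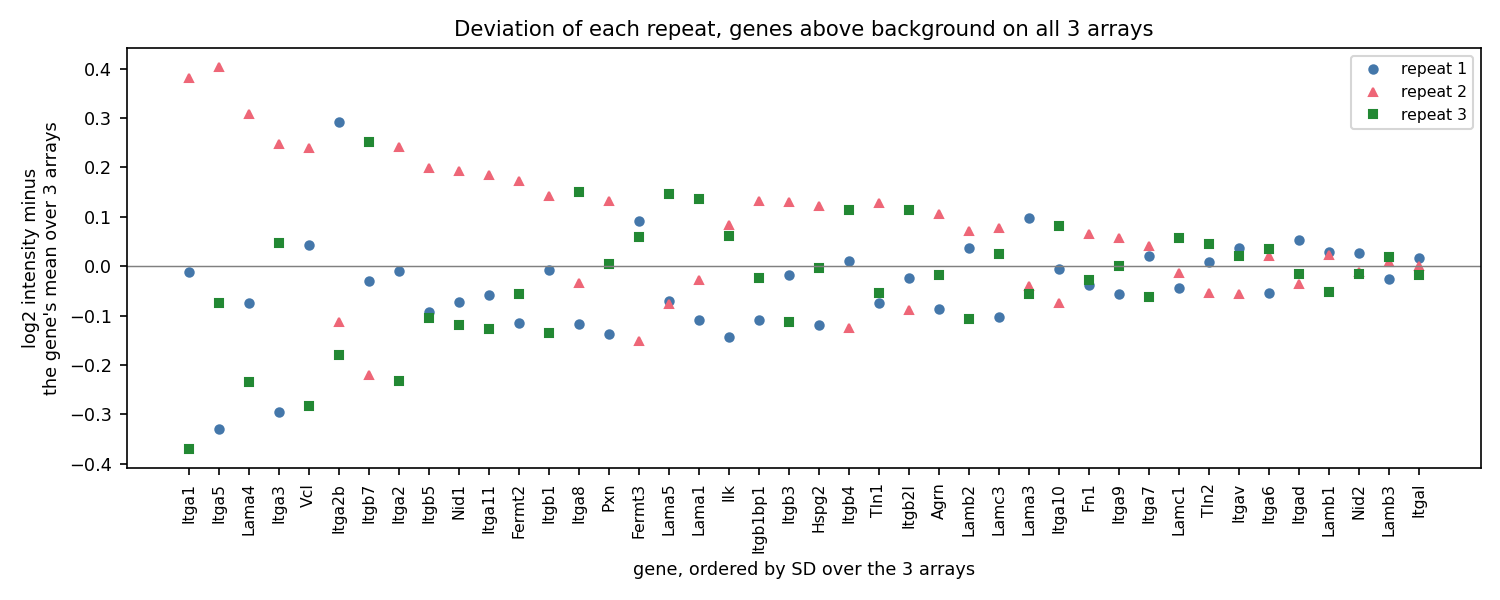
Log2 intensity of each repeat minus the gene's mean over the 3 arrays, for the 42 members above background, ordered from the largest SD (Itga1) to the smallest (Itgal). Repeat 2 (triangles) is the highest in 23 genes, including each of the 5 with the largest SD, while Itga2b is high in repeat 1 and Itgb7 in repeat 3.

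Markers of fibroblasts, the usual feeder cells of ES cultures, were mostly highest in repeat 2. The list was written with earlier results of these data known, so its counts and calls are descriptive only. Of 23 measured fibroblast markers 20 (87.0%) were above background, against 71.5% of genes outside the receptor families. Repeat 2 was the highest in 17 of these 20 markers (85.0%), against 36.9% of genes above background, with a median shift of 0.37 log2 units. Their summed intensity was 4322, 5941 and 4431 in repeats 1, 2 and 3. Acta2, smooth muscle actin, read 7.57, 9.11 and 8.07, and Lox, a collagen cross-linking enzyme, 6.46, 7.88 and 6.58; both passed limma's variance test (adjusted p = 0.00839 and 0.0197), but not with repeat 1 left out (0.2999 and 0.2949) or repeat 2 left out (0.189 and 0.997). Fap and Lum were below background on every array. Among the 11 markers of pluripotent cells repeat 2 was also the highest in 7 (63.6%), with a median shift of 0.095 log2 units and sums of 22167, 23345 and 21907. Markers of parietal and primitive endoderm, which makes a laminin-rich membrane in the embryo, were above background for 12 of 16 (75.0%), near the share of all genes. Above the other families lay 3 (18.8%), against 39.7% of genes outside those families, and Sox17, Dab2, Afp and Ttr were below background. The sums were 1317, 1619 and 1424, and Sparc, at 9.16, 9.69 and 9.44, made the largest part of them. Sums of endothelial markers, 7 of 10 (70.0%) above background with Emcn and Erg below it, were 603, 613 and 601. The part of any of these cell types in the members' values was not tested.

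Promoters are shown for Itga5, Itga1, Vcl and Itga3, the 4 members with an unadjusted p under 0.05, to let a reader compare what lies upstream. The RefSeq table of build GRCm38.p6 held start sites for 35 of the 52 members, in 40 windows. Each sequence is the 250 bases before the annotated start, written 5′ to 3′ on the gene's strand. The windows are chr15:103366792-103367041 (minus strand) for Itga5, chr13:115101965-115102214 (minus strand) for Itga1, chr14:20929148-20929397 (plus strand) for Vcl and chr11:95076715-95076964 (minus strand) for Itga3, the first of 2 listed. Capitals mark the CArG box, the element bound by serum response factor, and the GC box GGGCGG on either strand, which binds Sp factors.
Itga5: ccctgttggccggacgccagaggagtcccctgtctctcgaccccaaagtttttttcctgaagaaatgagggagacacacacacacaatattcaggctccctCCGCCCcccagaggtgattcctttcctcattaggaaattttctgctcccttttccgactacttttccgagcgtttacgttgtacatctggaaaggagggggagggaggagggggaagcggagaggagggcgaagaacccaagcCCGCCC
Itga1: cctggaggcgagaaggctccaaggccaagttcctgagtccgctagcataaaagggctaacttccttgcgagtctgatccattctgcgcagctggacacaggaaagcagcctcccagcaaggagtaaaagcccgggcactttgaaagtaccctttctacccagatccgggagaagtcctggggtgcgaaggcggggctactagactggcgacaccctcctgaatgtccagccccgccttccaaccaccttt
Vcl: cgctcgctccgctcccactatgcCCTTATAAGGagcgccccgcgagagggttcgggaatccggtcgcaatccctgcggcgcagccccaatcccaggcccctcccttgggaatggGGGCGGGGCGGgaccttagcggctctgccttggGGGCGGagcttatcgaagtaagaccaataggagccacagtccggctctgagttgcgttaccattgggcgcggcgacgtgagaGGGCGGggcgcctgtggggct
Itga3: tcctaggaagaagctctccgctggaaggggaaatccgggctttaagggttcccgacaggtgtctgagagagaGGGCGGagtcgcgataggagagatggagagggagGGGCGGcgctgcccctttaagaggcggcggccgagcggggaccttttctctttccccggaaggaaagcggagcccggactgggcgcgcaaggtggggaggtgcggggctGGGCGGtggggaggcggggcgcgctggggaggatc

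A CArG box was found in the window of Vcl at 227 to 218 bases before the start, and in none of the other 3 shown. Over all windows of the same length in the table, 1.47% of 32851 held one, and among the members' windows 4 of 40 did, those of Vcl, Fermt2, Itgb6 and Lama2. Itgb6 and Lama2 were below background on every array, so the box was present on both sides of the background call. GGGCGG was found in 17 of the 40 windows, beside 32.7% of all windows, and in those of Itga5, Vcl and Itga3 but not of Itga1. GGAATG, searched on both strands as the core that TEAD factors bind, was in 6 windows beside 12.6% of all windows, among them Vcl, Itgb1 and Nid1. TATAAA and the AP-1 element TGAGTCA were each in 1 window, of Vtn and Itgax, beside 12.4% and 4.46% of all windows. A match describes letters in this window and does not show binding.

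Other genes of the basement membrane were read for comparison. Of 27 measured collagens, collagen-modifying enzymes and partners 21 (77.8%) were above background, against 71.5% of genes outside the receptor families. Type IV collagen chains Col4a1 and Col4a2, which form the common network, read 6.76 ± 0.13 and 6.47 ± 0.24, and Col4a3, a chain of kidney and lung membranes, read 5.41 ± 0.23. The largest SD was that of Fbln2, a fibulin that binds laminin and nidogen, at 7.47, 8.26 and 7.54 (7.76 ± 0.44). Repeat 2 was the highest in 15 of the 21 (71.4%), against 36.9% of genes above background. Of 22 tested 0 passed limma's variance test after adjustment, with 4 (18.2%) at an unadjusted p under 0.05, against 5.75% of genes tested. With genes that are also cell type markers left out, repeat 2 was the highest in 13 of 19, and 2 of 20 had such a p.

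Of 36 measured adhesion adaptors and kinases 33 (91.7%) were above background, against 71.5% of genes outside the receptor families. The other 3 passed on 1 or 2 arrays. Lims1, the partner of Ilk, read 7.43 ± 0.12, and Lims2, its paralog, 5.24 ± 0.048. Parva, the third protein of the Ilk complex, read 6.10, 6.78 and 6.42 (6.44 ± 0.34), high in repeat 2 and low in repeat 1. Repeat 2 was the highest in 17 of the 33 (51.5%), against 36.9% of genes above background. Limma's variance test called 0 of 36, with 2 (5.56%) at an unadjusted p under 0.05, near the 5.75% of genes tested.

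Among 18 measured genes of the dystroglycan complex and of dystroglycan glycosylation 15 (83.3%) were above background, against 71.5% of genes outside the receptor families. The sarcoglycan Sgcb read 5.91 ± 0.16, while Sgca (4.41 ± 0.14) and Sgcd (4.18 ± 0.083), best known from muscle, were below background. Sntb2, a syntrophin, had the largest SD of those above background, at 7.33, 7.54 and 7.74 (7.54 ± 0.20). Repeat 2 was the highest in 5 of the 15 (33.3%), near the 36.9% of genes above background, and the lowest in 5. Its median shift was -0.0076. Limma's variance test called 0 of 15 tested, with 0 at an unadjusted p under 0.05, against 5.75% of genes tested.

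All 20 other matrix receptors and tetraspanins were above background, and 13 (65.0%) above the other families. Over genes outside the families used, these shares were 71.5% and 39.7%. The laminin receptor Bcam read 7.98 ± 0.11 and the syndecans Sdc1 and Sdc2 7.21 ± 0.063 and 5.26 ± 0.29. Sdc3 had the largest SD, at 5.78, 6.33 and 5.67 (5.93 ± 0.35). Repeat 2 was the highest in 7 of the 20 (35.0%), near the 36.9% of all genes, and repeat 3 in 9. Limma's variance test called 0 of 20, with 3 (15.0%) at an unadjusted p under 0.05, against 5.75% of genes tested.

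Other integrin ligands held the largest spreads of the 5 lists. Of 27 measured 21 (77.8%) were above background, against 71.5% of genes outside the receptor families. Their median SD was 0.22 log2 units, against 0.101 over all genes above background. Repeat 2 was the highest in 17 of the 21 (81.0%), against 36.9% of genes above background, with a median shift of 0.35. This list too was written with earlier results of these data known. Tnc, the Itga9 ligand tenascin C, read 8.34, 9.19 and 8.54 (8.69 ± 0.44), and Thbs2 read 7.10, 7.66 and 6.96 (7.24 ± 0.37). Thbs1, a thrombospondin, read 9.40, 10.50 and 9.30 (9.73 ± 0.67) and was the only gene of the 5 lists to pass limma's variance test. Its adjusted p in limma was 0.00839, and 0.145, 0.997 and 0.0408 without repeats 1, 2 and 3. In each of Tnc, Thbs2 and Thbs1 repeat 2 was the highest. Of 22 genes tested in this list 11 had an unadjusted p under 0.05, against 5.75% of genes tested. Col1a1, Col1a2, Col3a1 and Postn stand in both this list and the fibroblast markers. With genes that are also cell type markers left out, repeat 2 was the highest in 13 of 16. Of 17 tested, 7 (41.2%) then had an unadjusted p under 0.05.

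**Figure D4:**
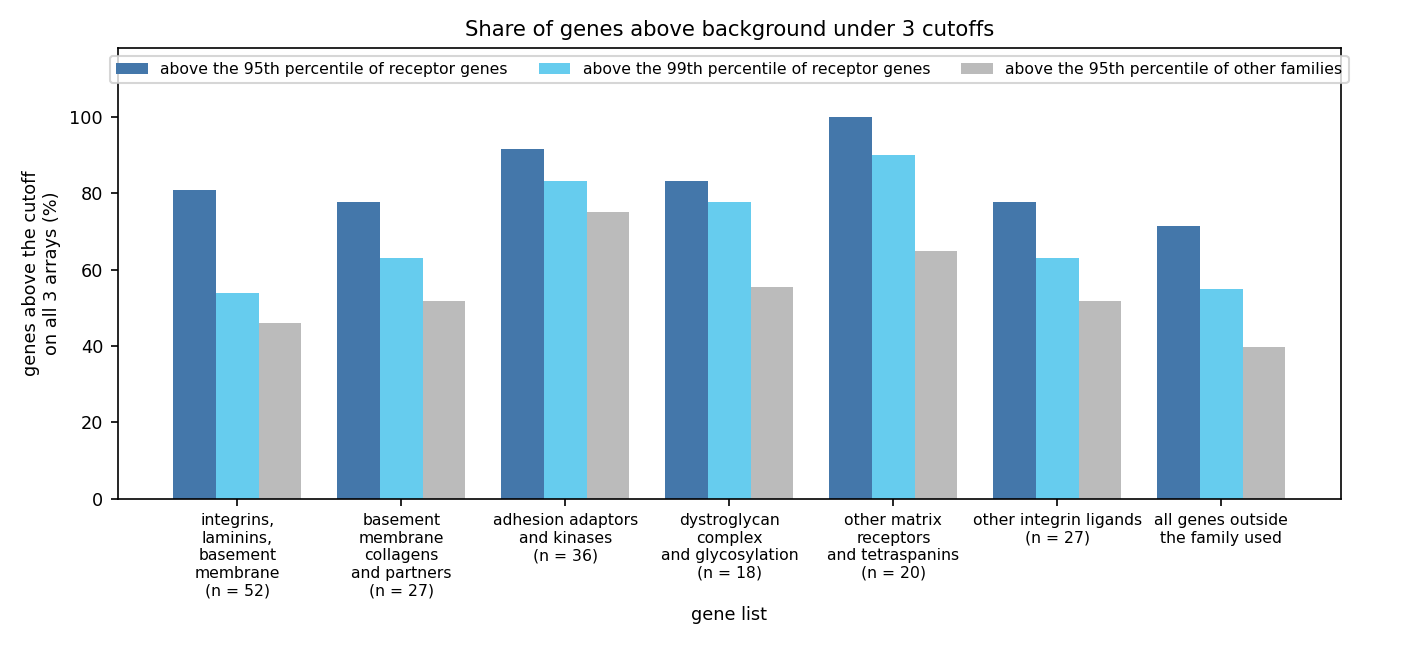
Percent of genes above each of 3 cutoffs on all 3 arrays, for the 52 integrin, laminin and basement membrane genes, 5 lists of related genes and all genes outside the family that set the cutoff. The 52 genes stand at 80.8%, 53.8% and 46.2%, and all genes at 71.5%, 54.9% and 39.7%.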

How the data were processed

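Total RNA of 3 repeats of the R1 line was read on Affymetrix Mouse Gene 1.0 ST arrays, per the labels. The authors deposited probe set intensity values on a linear scale, never negative; per the submitters' processing notes the software was GCOS 1.4. How background, normalization and summary were handled is not given in the sources used here. Small differences between repeats may depend on these steps. No further normalization was applied. Of 26730 probe sets, 20764 had 1 gene symbol in the platform annotation, which can be old, 1419 several and 4547 none; only the first were used, averaged on the log2 scale for the 930 genes with several, which left 19057 genes. All 53 member probe sets matched RefSeq gene identifiers, with no symbol changed.

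Spread between repeats was tested in limma 3.58.1 (R 4.3.3) as the variance of an intercept-only fit, with 2 degrees of freedom, over the trended robust prior variance, with 9.84, fitted to the 13592 genes that passed background on any array, with a Benjamini-Hochberg threshold of 0.05. The test was tried on simulated data first. Python 3.11.15 was used. The labels hold 1 group, so no conditions were compared. Members, gene lists and motifs were chosen with earlier results of these data known. Per-array values are given for a list of main receptors, ligands and linkers, the 10 members with the smallest p, members called on some arrays, and members of the minority call, above or below background, in a role where it holds 5 or fewer; in related lists, for the first 3 genes, the gene with the largest SD and those passing the test. Alternatives were other cutoffs, 2 of 3 arrays, quantile normalization, median centring, the highest probe set, all genes tested, a prior fitted without the trend or without robust weights, and each repeat left out in turn.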

Additional observations from a re-analysis of the deposited data

How the results depend on the processing

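The count of members above background was 42, stayed at 42 or 43 with 1 repeat left out, and lay within 1.5 times that under each alternative except other families as background, where it was 24; under that setting other matrix receptors and tetraspanins fell from 20 to 13, and the other 4 related lists stayed within 1.5 times. Limma's variance test called 0 members after adjustment under each setting tried, with 4 at an unadjusted p under 0.05 in the main setting and 6, 3 and 2 without repeats 1, 2 and 3. Over all genes the calls numbered 22, against 39 with median centring, 13 with quantile normalization, 10 without the robust prior, 1 without the trend, and 0, 34 and 11 without repeats 1, 2 and 3. The median SD of members ranged from 0.070 to 0.110 with 1 repeat left out. The median shift of repeat 2 was 0.059 with quantile normalization and 0.109 with median centring, and repeat 2 was highest in 23 and 25 members, beside 31.8% and 40.4% of genes above background; the causes were not tested. No paired analysis was possible because the labels hold 1 group.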

Other observations

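Itgam was read by a probe set of its own near 4.10, below background on every array. A further 3 probe sets carry Itgam together with the ribosomal protein gene Rpl35 in the annotation and read between 10.51 and 10.75 on the 3 arrays. They were left out because no gene can be named from a probe set with several symbols, and a reader who assigned them to Itgam would place it above every cutoff. Itgad, the only member with 2 probe sets, read 5.30 ± 0.069 on one and 4.90 ± 0.028 on the other.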
